A study of Mus musculus with 12 samples.

Results

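Ear1, Ear2 and Ear6 are 3 genes of the mouse eosinophil-associated ribonuclease family, picked by gene symbol from 23362 genes in the count tables of 12 RNA libraries. They were proposed with their response in these libraries known, so their counts, levels and fold changes are described here without a test. The study compared Xbp1-deficient (KO) with wild-type (WT) cells of C57BL/6 mice at 2 stages of eosinophil development. The earlier stage was the granulocyte-macrophage progenitor (GMP), a bone marrow cell that gives rise to granulocytes and monocytes, sorted directly into Trizol. The later stage was GMP that had been sorted, given GATA2, a zinc finger factor that drives eosinophil and mast cell fates, by transduction, sorted again and cultured for 48 hours (GATA2-GMP). The 4 groups were therefore GATA2-GMP KO, GATA2-GMP WT, GMP KO and GMP WT, with 3 libraries each. The labels name no Xbp1 allele, no Cre driver, no vector and no animal behind a library. Polyadenylated RNA of GMP was made into libraries with a TruSeq kit, whereas that of GATA2-GMP was first amplified with a SMARTer low-input kit, so stage, transduction, culture and kit cannot be told apart.

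Ear proteins are small secreted enzymes of the ribonuclease A superfamily, the rodent counterparts of the human eosinophil-derived neurotoxin and eosinophil cationic protein. They are made in the endoplasmic reticulum (ER), where disulfide bonds fix their fold, and in eosinophils they are stored in granules beside major basic protein and eosinophil peroxidase. The family is known for rapid gene duplication, which has left clusters of very similar genes and pseudogenes. Mouse Ear2 protein is known to attract dendritic cells, and Ear1 and Ear2 transcripts are also known from lung macrophages. XBP1 is the transcription factor that IRE1, a sensor of ER stress, turns on by splicing its mRNA.

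The 3 genes lie on chromosome 14 of build mm9, the build of the count tables. Ear1 occupies chr14:44396430-44397304 on the minus strand, Ear2 chr14:44680319-44681199 on the plus strand and Ear6 chr14:52473374-52474318 on the plus strand. Each has 2 exons, and the transcripts are 713, 719 and 713 bases long in the order Ear1, Ear2 and Ear6. Ear1 and Ear2 are 283 kb apart with 1 other protein-coding Ear gene, Ear10, between them, and Ear6 lies 7.792 Mb from Ear2. The annotation holds 7 protein-coding Ear genes and 9 Ear pseudogenes on this chromosome. Coding sequences of Ear1 and Ear2 were 95.1% identical, with 20 substitutions and 3 gap bases. Ear6 was 87.4% identical to Ear1 and 87.7% to Ear2. Ear10 was closer still to Ear2, at 97.03%.

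Because reads from near-identical genes can be assigned to the wrong one or discarded, 2 coding stretches are shown, with capitals at every base that is not the same in all 3 genes. The first is the longest coding run that Ear1 and Ear2 share, coding bases 171 to 266 (96 bases, at chr14:44396809-44396904 minus strand, chr14:44680722-44680817 plus strand and chr14:52473843-52473938 plus strand of mm9).
Ear1: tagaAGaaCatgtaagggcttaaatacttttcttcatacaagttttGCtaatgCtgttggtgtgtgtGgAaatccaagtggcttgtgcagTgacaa
Ear2: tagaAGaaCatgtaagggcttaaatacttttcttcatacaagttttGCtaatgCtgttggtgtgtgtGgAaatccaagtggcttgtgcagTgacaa
Ear6: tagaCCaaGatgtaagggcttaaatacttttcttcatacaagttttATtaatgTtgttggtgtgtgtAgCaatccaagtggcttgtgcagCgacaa
No read within this run can tell Ear1 from Ear2, whereas Ear6 differed from both at 9 bases.

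The second stretch is the 60 coding bases, 96 to 155, where Ear1 and Ear2 differ most (chr14:44396920-44396979 minus strand, chr14:44680647-44680706 plus strand and chr14:52473768-52473827 plus strand of mm9).
Ear1: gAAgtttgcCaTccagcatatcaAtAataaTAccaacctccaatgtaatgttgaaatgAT
Ear2: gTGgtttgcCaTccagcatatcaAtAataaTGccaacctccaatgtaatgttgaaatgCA
Ear6: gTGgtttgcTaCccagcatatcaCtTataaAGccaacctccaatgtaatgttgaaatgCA
Ear1 and Ear2 differed at 5 bases here, and Ear6 differed from Ear1 at 10 and from Ear2 at 5.

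How far reads can be placed was measured by cutting the annotated exons into windows of a fixed length and searching the mm9 genome, on both strands, for exact copies. At 50 bases, 35.1% of Ear1 windows, 48.5% of Ear2 windows and 95.6% of Ear6 windows occurred once. At 100 bases the shares were 78.0%, 75.1% and 100%. Of the 50-base Ear1 windows, 40.2% also occurred in the pseudogene Ear-ps9, 24.4% in Ear2 and 18.2% in Ear10. Of the Ear2 windows, 28.0% also occurred in Ear10 and 24.2% in Ear1. Only 1.46% of the Ear6 windows were shared with Ear1. The read length is not given in the sources used here. The count tables hold records with several alignments in a row of their own, apart from the gene counts. At every window length tried, that leaves a smaller part of Ear1 and Ear2 to count than of Ear6. No correction was made for this. Ear1 and Ear2 are reported as a pair whose division is uncertain. A count for either may also hold reads of Ear10 or of a pseudogene.

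**Figure D1:**
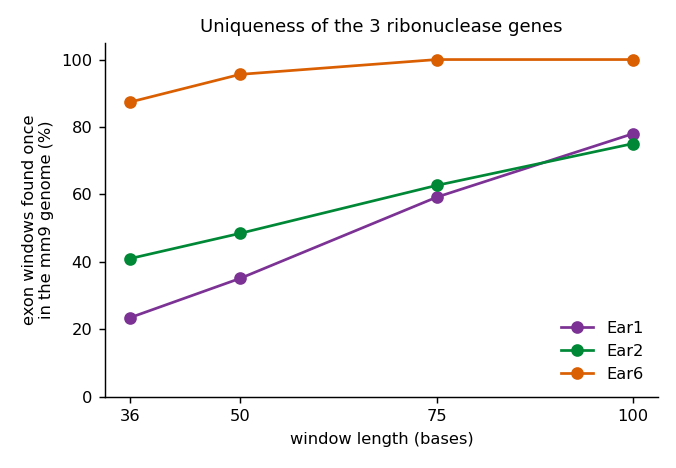
Share of exon windows (y axis, percent) that occur once in the mm9 genome, against window length (x axis, bases), for Ear1, Ear2 and Ear6. Ear6 lies between 87.4% and 100%, while Ear1 runs from 23.5% to 78.0% and Ear2 from 41.0% to 75.1%.

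Library totals ran from 8219366 to 33640911 counts assigned to genes. Both extremes were GMP KO libraries, and GATA2-GMP libraries held 17828854 to 22563638 counts. Records with more than 1 alignment made up 48.4%, 48.1% and 55.0% in GATA2-GMP KO libraries 1 to 3 and 49.1%, 52.3% and 40.3% in GATA2-GMP WT. Levels are given as CPM, counts divided by a library size that was scaled over all 12 libraries by TMM, and 95% intervals cover counting error only. Xbp1 itself had 99.9, 122 and 128 CPM in GATA2-GMP KO against 381, 269 and 197 CPM in GATA2-GMP WT. In GMP it had 89.8, 55.9 and 56.8 CPM in KO and 131, 133 and 153 CPM in WT, so at both stages every KO library lay below every WT library. Its log2 fold change was -1.28 (SE 0.27, edgeR adjusted p = 0.0959) in GATA2-GMP and -1.06 (SE 0.21, adjusted p = 0.0919) in GMP. It passed in edgeR without WT 3 in GATA2-GMP and without KO 1 in GMP, and in DESeq2 with all libraries at both stages (adjusted p = 0.00185 in GATA2-GMP and 0.00073 in GMP). Gene-level counts include exons outside any deleted part. As a check of the labelled stages, Gata2 averaged 267 ± 29.4 CPM in GATA2-GMP KO and 292 ± 73.9 CPM in GATA2-GMP WT, against 27.4 ± 2.29 CPM in GMP KO and 28.7 ± 9.54 CPM in GMP WT (SD, n = 3 each). Cd34, a progenitor surface marker, averaged 12.3 and 14.1 CPM in GATA2-GMP KO and WT, against 339 and 408 CPM in GMP KO and WT. On the second principal component of the 12 libraries, GATA2-GMP WT 3 lay nearer the GATA2-GMP KO libraries than WT 1 and WT 2 did. Nothing in the labels ties a library to an animal of its own, so p-values measure only the spread between these libraries, which may be technical.

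In GATA2-GMP, mean CPM was 91.1-fold lower in KO than in WT cells for Ear1 and 80.8-fold lower for Ear2. Ear6 was high in both genotypes and 5.45-fold lower in KO. In GMP all 3 genes were at the edge of detection in both genotypes. Fewer eosinophil-lineage cells and less Ear RNA per cell cannot be told apart in RNA from bulk cells.

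Ear1 had 25, 36 and 31 counts in GATA2-GMP KO libraries 1 to 3, against 4775, 1211 and 1879 counts in GATA2-GMP WT. On the CPM scale that was 1.46, 2.304 and 2.33 in KO and 369, 76.0 and 110 in WT. The highest KO library was far below the lowest WT library, and WT 1 stood above the other 2 WT libraries. Group means were 2.03 ± 0.495 CPM in KO and 185 ± 161 CPM in WT (SD, n = 3 each). The log2 fold change was -6.51 (SE 0.67), and -5.51 without WT 1, the value nearest 0 when any 1 library was left out. Summed over the KO group, the 92 Ear1 counts had a 95% Poisson interval of 74.2 to 113.

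Ear2 had 17, 14 and 8 counts in GATA2-GMP KO, against 1684, 568 and 602 counts in GATA2-GMP WT. Its levels were 0.992, 0.896 and 0.601 CPM in KO and 130, 35.6 and 35.1 CPM in WT. Again the groups did not overlap, WT 1 was the highest library and the KO libraries were within a narrow range. The log2 fold change was -6.30 (SE 0.64), and -5.39 without WT 1. The 39 KO counts had a 95% Poisson interval of 27.7 to 53.3. Since the division between Ear1 and Ear2 is uncertain, the sum of both is the safer quantity: 42, 50 and 39 counts in KO and 6459, 1779 and 2481 counts in WT.

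Ear6 had 1914, 2321 and 4748 counts in GATA2-GMP KO, against 24171, 14643 and 9805 counts in GATA2-GMP WT. That corresponded to 112, 149 and 357 CPM in KO and 1870, 919 and 571 CPM in WT. The groups did not overlap, but KO 3 and WT 3, the nearest libraries, were closer to each other than to the far end of their own group on the CPM scale. Means were 206 ± 132 CPM in KO and 1120 ± 672 CPM in WT (SD, n = 3 each), with a log2 ratio of -2.44 (SE 0.54). It was -1.86 without WT 1 and -3.11 with the library left out that took it farthest from 0.

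All 3 genes were thus lower in every GATA2-GMP KO library than in any WT library, as were 12.3% of the 11699 genes tested in this comparison. At an adjusted p under 0.05, 0.376% of all genes were called, 0.103% higher and 0.274% lower. Nothing is read from the members' count against these shares, because the contrast was known when the genes were chosen. Ear1 had the lowest and Ear2 the next lowest log2 fold change of the 11699 genes, and 17 genes lay below Ear6.

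**Figure D2:**
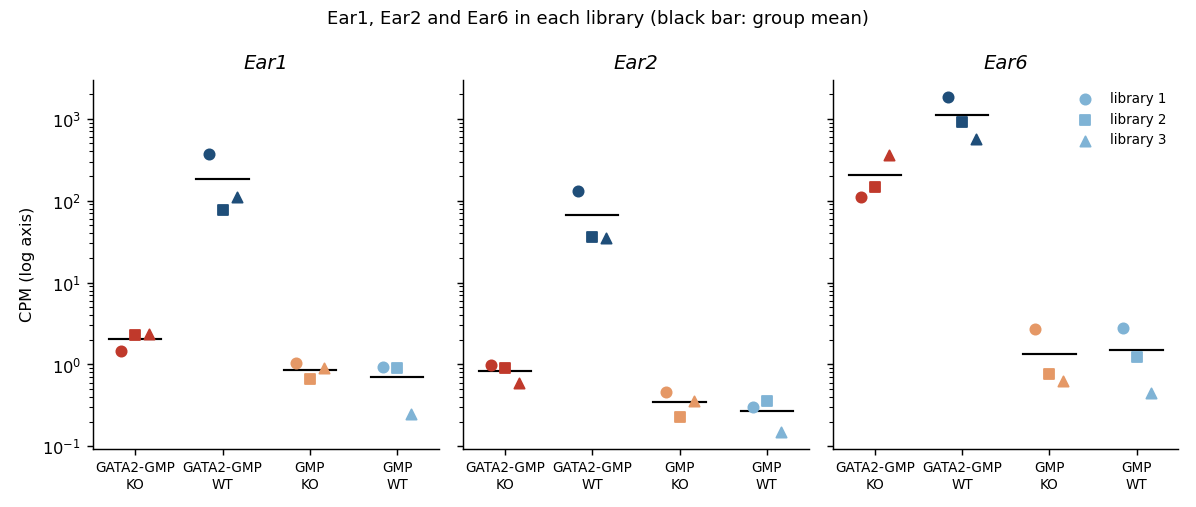
CPM of Ear1, Ear2 and Ear6 (log y axis) in each library of the 4 groups (x axis), with a symbol for each library number and a black bar at the group mean. Ear1 and Ear2 lie at or under 2.33 CPM outside GATA2-GMP WT, while Ear6 lies at or above 112 CPM in all 6 GATA2-GMP libraries.

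In freshly sorted GMP, Ear1 had 29, 29 and 10 counts in KO and 22, 23 and 5 counts in WT, which is 1.04, 0.667 and 0.896 CPM against 0.940, 0.917 and 0.250 CPM. The groups overlapped, and the log2 fold change of 0.20 (SE 0.40) was smaller than its error. Ear2 had 13, 10 and 4 counts in KO and 7, 9 and 3 counts in WT, too few to pass the filter on low counts. Without that filter its log2 fold change was 0.26 (SE 0.52). Ear6 had 75, 33 and 7 counts in KO and 65, 31 and 9 counts in WT, and its log2 fold change was -0.11 (SE 0.80). None of the 3 had separate groups in GMP, where 19.4% of the 12002 genes tested had them in either direction, and 2 of the 3 passed the filter. Counting error alone was wide in GMP: the summed counts of Ear2 were 27 in KO (95% Poisson interval 17.8 to 39.3) and 19 in WT (11.4 to 29.7). In both genotypes, library 1 had the most Ear6, at 2.68 CPM in KO 1 and 2.78 CPM in WT 1.

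The genotype difference in GATA2-GMP minus that in GMP, fitted over all 12 libraries, was -6.74 (SE 0.92) for Ear1, -6.58 (SE 1.01) for Ear2 and -2.36 (SE 0.96) for Ear6 on the log2 scale. Of 12803 genes tested this way, 0.0859% were called in either direction, which is 11 genes. That number was 1179 without GATA2-GMP WT 3, 127 without GATA2-GMP WT 2, 28 and 25 without GATA2-GMP KO 3 and KO 2, 10 without GATA2-GMP WT 1 and 0 without GATA2-GMP KO 1, where 1687 genes had an unadjusted p under 0.05. Without any 1 GMP library it was 1 or 2. This quantity too was open to view when the genes were chosen.

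Between the stages, the fold changes separated Ear6 from the other two. In WT cells, GATA2-GMP stood above GMP by a log2 fold change of 7.998 (SE 0.82) for Ear1, 7.90 (SE 0.75) for Ear2 and 9.54 (SE 0.81) for Ear6. In KO cells the values were 1.25 (SE 0.36), 1.30 (SE 0.45) and 7.18 (SE 0.67). Every GATA2-GMP library lay above every GMP library of its genotype for all 3 genes. The same held, in this direction, for 39.6% of 12438 genes tested in KO and 35.8% of 12251 genes tested in WT. The 2 stage comparisons share no library. Each shares its GATA2-GMP and GMP libraries with the genotype comparisons above. For Ear1 the order of levels was GATA2-GMP WT, GATA2-GMP KO, then GMP KO and GMP WT, and the last 2 did not differ beyond their spread. Ear2 and Ear6 had the same pair of overlapping groups in GMP. GATA2-GMP KO was 2.34 times GMP KO in mean CPM for Ear1 and 2.36 times for Ear2, but 152 times for Ear6.

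**Figure D3:**
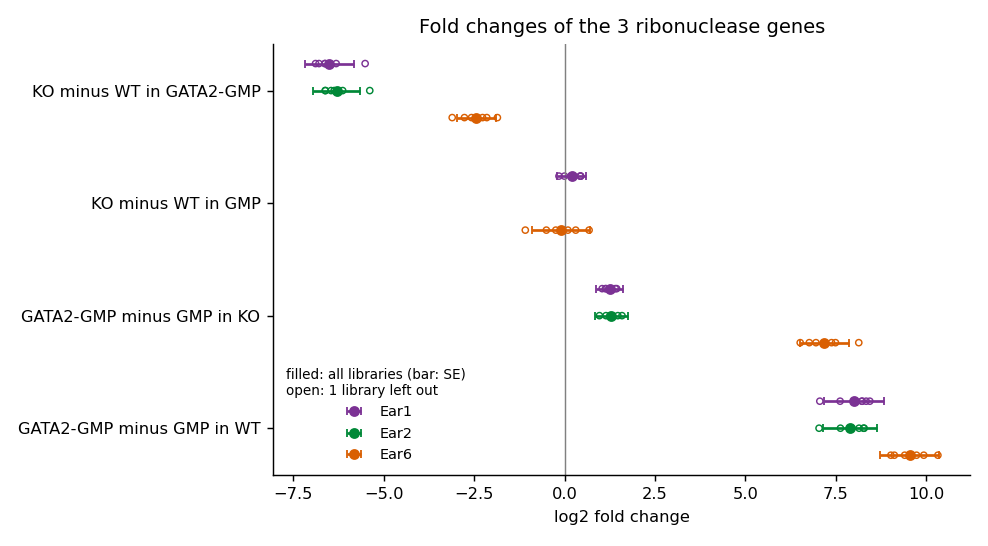
Log2 fold change (x axis) of Ear1, Ear2 and Ear6 in 4 comparisons (y axis), with filled points and SE bars from all libraries and open points from fits without 1 library. Ear2 has no point for KO minus WT in GMP, where it did not pass the filter; in GATA2-GMP minus GMP in KO, Ear1 and Ear2 lie at 1.25 and 1.30 and Ear6 at 7.18.

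Ratios within a library do not depend on how libraries are scaled. Per 100 Ear6 counts there were 1.31, 1.55 and 0.653 Ear1 counts in GATA2-GMP KO and 19.8, 8.27 and 19.2 in GATA2-GMP WT. In GMP there were 38.7, 87.9 and 143 in KO and 33.8, 74.2 and 55.6 in WT, from at most 75 counts of either gene. The makeup of the 3 genes' counts thus differed between GATA2-GMP KO, where Ear6 held 97.9 to 99.2%, and GATA2-GMP WT, where it held 78.9 to 89.2%. The ratio of Ear1 to Ear2 counts, by contrast, overlapped among all 4 groups. It was 1.47 to 3.88 in GATA2-GMP KO, 2.13 to 3.12 in GATA2-GMP WT, 2.23 to 2.90 in GMP KO and 1.67 to 3.14 in GMP WT. Ear1 as a share of Prg2 counts was 0.00294 to 0.00424% in GATA2-GMP KO and 0.0627 to 0.207% in GATA2-GMP WT. Ear6 as a share of Prg2 counts was 0.225 to 0.649% and 0.448 to 1.05% in these groups, which overlapped. Per kilobase of transcript, Ear6 reached 157 to 500 CPM in GATA2-GMP KO and 801 to 2623 CPM in GATA2-GMP WT. Ear1 reached 2.04 to 3.27 and 107 to 518 CPM per kilobase, and Ear2 0.836 to 1.38 and 48.8 to 181 CPM per kilobase, before any allowance for their less unique sequence.

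**Figure D4:**
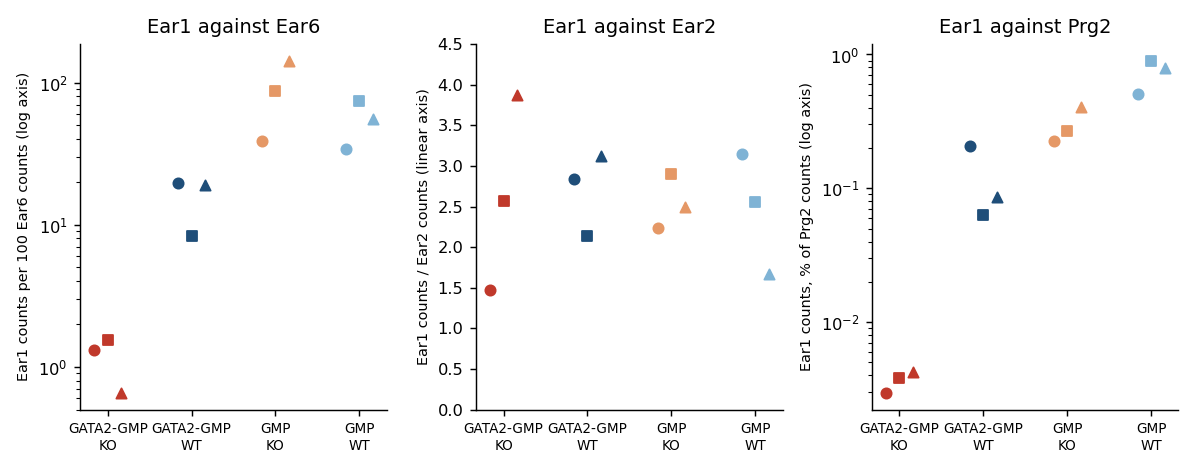
Ear1 counts per 100 Ear6 counts (left, log axis), Ear1 counts divided by Ear2 counts (middle, linear axis) and Ear1 counts in percent of Prg2 counts (right, log axis) in each library. GATA2-GMP KO lies apart from the other groups on the left and right, at 0.653 to 1.55 and 0.00294 to 0.00424, and overlaps with them in the middle.

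Ear6 ranked 68 to 275 by counts among the 23362 genes in GATA2-GMP WT libraries and 632 to 2179 in GATA2-GMP KO libraries. Counts of the whole Ear family were 0.00995 to 0.0269% of a library in GATA2-GMP KO and 0.0545 to 0.163% in GATA2-GMP WT. Ear1, Ear2 and Ear6 together made up at least 99.5% of the family's counts in every GATA2-GMP library. Of the 11 Ear symbols in the tables, 5 had no count in any library: Ear3, Ear4, Ear7, Ear12 and Ear14. Ear5 had 6 counts in GATA2-GMP KO and 31 in GATA2-GMP WT, Ear10 had 4 and 7, and Ear11 had 20 and 36. In GMP, Ear5 and Ear10 had no count, and Ear11 had 27 in KO and 16 in WT. Ear10 had few counts although its coding sequence is nearly that of Ear2.

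The proximal promoters of the 3 genes are shown as well. Any part of these sequences in the Ear values was not tested, and the division of reads between Ear1 and Ear2 is uncertain. The last 120 bases before the start of transcription come from RefSeq in build GRCm38.p6, at chr14:43819640-43819759 minus strand, chr14:44102534-44102653 plus strand and chr14:51853648-51853767 plus strand. Capitals mark a match to the motif TTGCNNAA.
Ear1: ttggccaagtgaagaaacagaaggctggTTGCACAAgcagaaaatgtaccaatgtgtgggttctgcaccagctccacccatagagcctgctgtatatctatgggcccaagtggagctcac
Ear2: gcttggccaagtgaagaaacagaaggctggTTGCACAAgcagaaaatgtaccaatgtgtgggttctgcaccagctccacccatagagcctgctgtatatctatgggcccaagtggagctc
Ear6: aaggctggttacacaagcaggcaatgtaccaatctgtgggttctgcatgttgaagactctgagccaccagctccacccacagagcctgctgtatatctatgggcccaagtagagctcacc
Over the 250 bases before the start, Ear1 and Ear2 were 97.6% identical and shared an unbroken run of 196 bases, while Ear6 was 78.2% identical to Ear1 and 77.3% to Ear2. The motif TTGCNNAA, of the C/EBP family, was found at -92 in Ear1 and -90 in Ear2 and not in the 300-base window of Ear6, and 10.8% of 32851 mouse promoter windows hold it. GATAA, read on the minus strand, began 4, 7 and 3 bases into the transcript in Ear1, Ear2 and Ear6, and 25.4% of windows hold it. Both strands were searched, and none of the other motifs looked for was found in the 3 windows. Those were TGACGTGG of the unfolded protein response, held by 0.676% of windows, the ER stress response element (CCAAT and CCACG with a 9-base gap), by 0.119%, GAGGAAGT of PU.1, by 3.20%, and TATAAA, by 13.6%.

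By the root mean square difference of centred log2 CPM over the 12 libraries, the gene most like Ear1 was Ear2, at 0.38. Next came Trim38, an E3 ubiquitin ligase of antiviral signalling, at 1.48, the serpin Serpina11 at 1.66, the small GTPase Rasl11b at 1.70 and the complement component C7 at 1.71. For Ear2 they were Ear1, Trim38 at 1.38, Serpina11 at 1.59, C7 at 1.61 and the integrin chain Itgb2 at 1.63. Ear6 was nearest to Prg3, at 0.83, then to A530064D06Rik at 0.93, to the cytokine Il4 at 0.95, to the receptor Pilrb1 at 0.96 and to Prg2 at 0.98. Its distances to Ear1 and Ear2 were 2.47 and 2.56. Trim38 had 0.992, 0.192 and 2.03 CPM in GATA2-GMP KO and 6.81, 6.90 and 6.06 CPM in GATA2-GMP WT. Serpina11 averaged 4.96 ± 0.101 CPM in GATA2-GMP KO and 20.1 ± 12.02 CPM in GATA2-GMP WT (SD, n = 3 each), with a log2 ratio of -2.01 (SE 0.41, edgeR adjusted p = 0.0822). Ear1 had the lowest log2 fold change of the 11699 genes tested between GATA2-GMP KO and WT, so no neighbour could fall further. The 8 genes named here that are neither Ear genes nor granule proteins had adjusted p-values of 0.0749 to 0.425 between the genotypes in GATA2-GMP, and Itgb2 fell in GMP, at -0.90 (SE 0.13, adjusted p = 0.00421).

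The eosinophil granule proteins that share a compartment with the Ear proteins are Prg2, the major basic protein, its homologue Prg3, and Epx, the eosinophil peroxidase. In GATA2-GMP, Epx had 3977, 4901 and 2282 CPM in KO against 18226, 8413 and 33368 CPM in WT, with a log2 ratio of -2.42 (SE 0.52, adjusted p = 0.0974). Prg2 averaged 54896 ± 5345 CPM in KO and 142268 ± 31193 CPM in WT (SD, n = 3 each), at -1.37 (SE 0.35, adjusted p = 0.129). Prg3 was at -1.27 (SE 0.31, adjusted p = 0.124). In all 3 the KO libraries lay below the WT libraries, as they did for 12.3% of the 11699 genes tested. None of the 3 granule genes passed in edgeR, although all 3 had an unadjusted p under 0.05 and all 3 passed in DESeq2. Of all 11699 genes tested, 1743 had an unadjusted p under 0.05, and DESeq2 called 504 of 19210. The median of this list was -1.37, beside -0.0049 for all genes tested. In GMP the same genes had positive log2 fold changes, 1.54 (SE 0.75, adjusted p = 0.461) for Prg2, 1.21 (SE 0.60, adjusted p = 0.466) for Prg3 and 1.54 (SE 0.56, adjusted p = 0.337) for Epx. None passed there in edgeR or DESeq2, and 1 had an unadjusted p under 0.05, while the paired fit with a replicate block called Prg3 (adjusted p = 0.00379). The labels state no such pairing. Of all 12002 genes tested in GMP, 1737 had an unadjusted p under 0.05, and the paired fit called 964. In WT cells all 3 rose between GMP and GATA2-GMP, by a median of 9.82 on the log2 scale. Of all genes tested there, 34.1% were called higher.

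**Figure D5:**
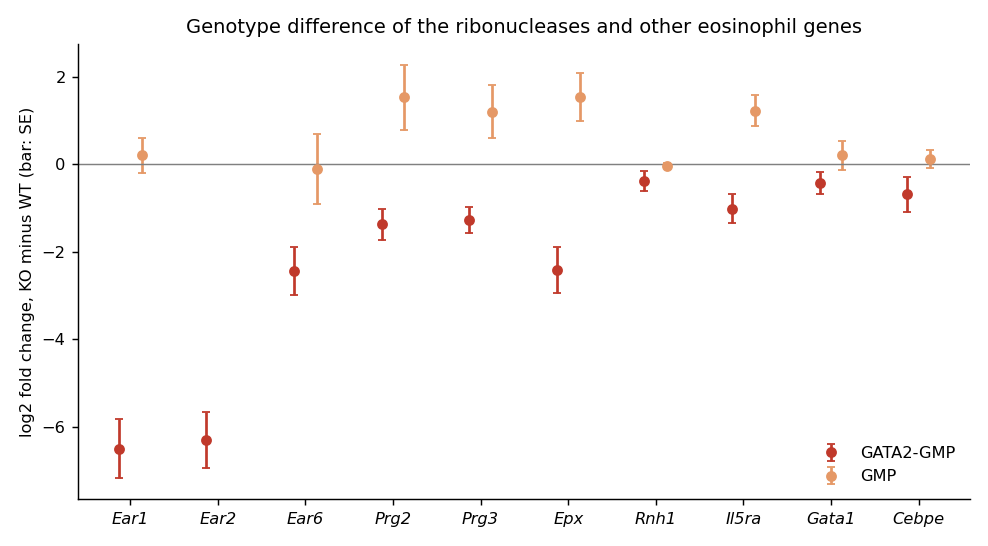
Log2 fold change KO minus WT (y axis, with SE) of the 3 Ear genes and 7 other eosinophil genes in GATA2-GMP and in GMP. In GATA2-GMP, Ear1 at -6.51 and Ear2 at -6.30 lie below Ear6 at -2.44, Epx at -2.42 and the rest; Ear2 has no value in GMP.

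Of the other Ear genes and pancreatic-type ribonucleases, 22 of 27 symbols were in the tables. In GATA2-GMP 3 of them had enough reads to test, namely Rnase4, Rnase6 and angiogenin (Ang), and none passed in edgeR, at an unadjusted p under 0.05 or in DESeq2. Rnase4 had 13.8 ± 4.40 CPM in GATA2-GMP KO and 13.5 ± 2.81 CPM in GATA2-GMP WT (SD, n = 3 each), with a log2 ratio of 0.03 (SE 0.31, adjusted p = 0.977). Rnase6 was at -1.31 (SE 0.82, adjusted p = 0.494). In GMP 5 were tested and none passed in edgeR or DESeq2, with 1 at an unadjusted p under 0.05. Between the stages in WT cells, 3 of 5 rose (Rnase4, Rnase6 and Rnase12) and Rnase10 fell. The Rnase12 call rests on GATA2-GMP WT counts of 0, 2740 and 5. Background shares for that comparison were 34.1% called higher and 36.4% called lower of all genes tested. When libraries were scaled without the 20 genes with the most counts, the split over all genes was 2995 higher and 6092 lower, against 4176 higher and 4462 lower with TMM. Total counts over the 12 libraries were 1810 for Rnase4, 991 for Rnase6, 3235 for Rnase12, 195 for Ang, 177 for Rnase10, 22 for Ang4, 10 for Rnase9, 7 for Rnase11 and 1 for Rnase1.

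Rnh1, the cytosolic ribonuclease inhibitor that binds this class of enzymes, had 838 ± 102 CPM in GATA2-GMP KO and 1099 ± 101 CPM in GATA2-GMP WT (SD, n = 3 each). Its log2 ratio was -0.39 (SE 0.23, adjusted p = 0.477). In GMP it had 101 ± 10.1 CPM in KO and 103 ± 2.78 CPM in WT, with a log2 ratio of -0.03 (SE 0.061, adjusted p = 0.880). Of the 5 tested genes in its list of RNA-degrading enzymes and their inhibitor, none passed in GATA2-GMP in edgeR, at an unadjusted p under 0.05 or in DESeq2. Pld4, a lysosomal exonuclease, rose in GMP KO by a log2 value of 0.66 (SE 0.11, adjusted p = 0.0106), a call lost without WT 3 or without KO 3. In GMP 3.17% of genes tested were called, 0.658% higher and 2.52% lower. Rnh1 rose between the stages in WT cells by 3.43 (SE 0.17, adjusted p = 4.16e-06). With it, 4 of the 5 tested genes of its list rose and Pld4 fell, beside 34.1% of all genes called higher and 36.4% lower.

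Enzymes that form disulfide bonds in the ER formed a further list. In edgeR, 4 of 18 tested fell and none rose in GATA2-GMP KO, with a median of -0.68 beside -0.0049 for all genes. In GMP 10 of 18 fell and none rose, with a median of -0.70 beside 0.0058. Of all genes tested, edgeR called 0.274% lower in GATA2-GMP and 2.52% lower in GMP. With a replicate block 13 of the list fell in GMP, beside 568 of all 12002 genes. In GATA2-GMP the block left 0 calls in the list and 3 over all 11699 genes. DESeq2 called 9 of the list lower and 1 higher in GATA2-GMP, and 12 lower in GMP. Over all genes it called 265 of 19210 lower in GATA2-GMP and 366 of 16279 lower in GMP. The isomerase Pdia5 fell by 3.02 in GATA2-GMP (SE 0.33, adjusted p = 0.00945) and by 1.36 in GMP (SE 0.16, adjusted p = 0.00292). Erp44, which retains unfinished proteins in the early secretory pathway, fell by 2.07 in GATA2-GMP (SE 0.33, adjusted p = 0.0437) and by 1.39 in GMP (SE 0.11, adjusted p = 0.000145). Txndc5 fell by 2.39 (SE 0.25, adjusted p = 0.00899) and Creld2 by 2.34 (SE 0.31, adjusted p = 0.0271) in GATA2-GMP. In GMP the isomerase P4hb fell by 1.14 (SE 0.085, adjusted p = 5.54e-05) and Txndc11 by 1.07 (SE 0.11, adjusted p = 0.000421). All 4 calls in GATA2-GMP were lost without KO 1 and without KO 3. The call of Creld2 was also lost without WT 1, and that of Erp44 without WT 1, WT 2 or KO 2, so Erp44 passed in 1 of 6 such fits. In GMP that of Pdia5 was lost without KO 1. The list was picked with these results known, so its direction is no separate evidence.

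Among eosinophil receptors and enzymes, none of 15 tested passed in GATA2-GMP in edgeR. At an unadjusted p under 0.05 there were 4 lower, and 2 were lower in DESeq2, and the list's median was -0.20. Over all genes, 1743 of 11699 had an unadjusted p under 0.05 and DESeq2 called 504 of 19210. Il5ra, the interleukin-5 receptor chain that marks the lineage, had 26.8, 37.0 and 31.3 CPM in GATA2-GMP KO and 52.2, 41.7 and 99.0 CPM in GATA2-GMP WT, with a log2 ratio of -1.02 (SE 0.33, adjusted p = 0.214). In GMP it was at 1.23 (SE 0.36, adjusted p = 0.115), and the paired fit called it (adjusted p = 0.00225). The labels state no such pairing, and that fit called 964 of 12002 genes, against 381 without it. None of 11 tested passed in GMP in edgeR, with 5 higher at an unadjusted p under 0.05 and 1 higher in DESeq2. Over all genes in GMP, 1737 of 12002 had an unadjusted p under 0.05 and DESeq2 called 489 of 16279. Of the eosinophil transcription factors none of 13 passed in GATA2-GMP in edgeR or DESeq2, with 2 lower at an unadjusted p under 0.05. Gata1 averaged 117 ± 19.8 CPM in GATA2-GMP KO and 159 ± 46.2 CPM in GATA2-GMP WT (SD, n = 3 each), at -0.43 (SE 0.26, adjusted p = 0.477). Gata2 was at -0.12 (SE 0.25, adjusted p = 0.859). Cebpe, a granule gene activator, averaged 143 ± 49.1 CPM in KO and 231 ± 118 CPM in WT, at -0.68 (SE 0.40, adjusted p = 0.469). In GMP 1 of 15 rose, Id1, by 1.003 (SE 0.15, adjusted p = 0.00225), beside 0.658% of all genes called higher. In the paired fit 3 were higher, beside 396 of all 12002 genes. Between the stages in WT cells 13 of 15 receptors and enzymes rose and 2 fell, and 10 of 15 transcription factors rose and 4 fell. Most genes moved in that comparison: of all 12251 tested, 34.1% were called higher and 36.4% lower.

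Markers of other cell types were summed in each library beside these results. In GATA2-GMP the basophil and mast cell list had 8896 to 14532 CPM in KO and 5211 to 14647 CPM in WT. The neutrophil list had 36999 to 57995 CPM in KO and 43642 to 74073 CPM in WT. Monocyte and macrophage markers had 2767 to 5930 CPM in KO and 4056 to 8708 CPM in WT, and 1 of 16 tested, Car4, fell. Car4, a membrane carbonic anhydrase of this list, had 21.5, 45.2 and 38.4 CPM in GATA2-GMP KO and 297, 119 and 336 CPM in GATA2-GMP WT. As a single gene it does not identify a cell type, and it had no count in GMP. Its log2 fold change was -2.83 (SE 0.43, adjusted p = 0.0405), and it passed in 2 of the 6 fits that leave out 1 library, those without WT 2 or WT 3. Marco, a scavenger receptor of lung macrophages, averaged 0.128 CPM in GATA2-GMP KO and 0.0194 CPM in GATA2-GMP WT, and the macrophage complement gene C1qa averaged 0.0972 CPM in KO and had no count in WT. Other members of this list were not near 0. Between the stages in WT cells 9 of 17 tested rose: Car4, Cd14, Chi3l3, Emr4, Itgax, Ly6c2, Lyz2, Mrc1 and Pparg. The 5 that fell were Csf1r, Cx3cr1, F13a1, Irf8 and Klf4. Of all genes, 34.1% were called higher and 36.4% lower there. Erythroid and megakaryocyte markers had 452 to 717 CPM in KO and 439 to 727 CPM in WT, and 4 globin genes had no count in GATA2-GMP. Lymphoid markers had 393 to 588 CPM in KO and 420 to 698 CPM in WT. The stem and early progenitor list had 138 to 228 CPM in KO and 55.0 to 120 CPM in WT, 2 groups that did not overlap. Separate groups were common among single genes: 12.3% of the 11699 tested had every KO library below every WT library. The share for the other direction is not given. Apart from Car4, no marker of the 6 lists passed in edgeR in GATA2-GMP. Of all 11699 genes tested, 1743 had an unadjusted p under 0.05 in either direction. At that threshold there were 2 of 14 higher among basophil and mast cell markers, and 1 higher and 2 lower of 15 among neutrophil markers. Monocyte and macrophage markers had 3 higher and 3 lower. There were 2 of 6 lower among erythroid, 1 of 3 higher among lymphoid and 2 of 6 higher among stem and early progenitor markers. DESeq2 called 1 higher basophil, lymphoid and stem cell marker each, 1 lower neutrophil and erythroid marker each, and 3 higher and 2 lower monocyte and macrophage markers. Over all genes it called 504 of 19210. The part of these cell types in the Ear values was not tested.

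In GMP, stem and early progenitor markers had 786 to 860 CPM in KO and 849 to 930 CPM in WT, and neutrophil markers had 21932 to 26421 CPM in KO and 25457 to 27908 CPM in WT, and each pair of ranges overlapped. The erythroid and megakaryocyte sums did not overlap, at 250 to 280 CPM in KO and 289 to 321 CPM in WT. Among single genes in GMP, 19.4% of the 12002 tested had separate groups in either direction. Of the lists, 1 of 9 basophil and mast cell markers rose, Fcer1a, by 1.49 (SE 0.32, adjusted p = 0.0224), which was lost without WT 1, WT 2 or KO 1. Of the neutrophil markers Cd177 rose by 1.38 (SE 0.21, adjusted p = 0.00219) and the elastase Elane fell by 1.18 (SE 0.069, adjusted p = 1.01e-05). In the paired fit 8 neutrophil markers were higher and 2 lower, beside 396 higher and 568 lower of the 12002 genes tested. The progenitor transcription factor Sox4 fell by 0.31 (SE 0.061, adjusted p = 0.0137), lost without WT 2, KO 2 or KO 3. Monocyte and macrophage, erythroid and megakaryocyte, and lymphoid markers had no call in edgeR. At an unadjusted p under 0.05 they had 3 higher, 1 lower and 1 lower, and DESeq2 called 1 higher monocyte marker and none of the other 2 lists. Over all genes in GMP, 1737 of 12002 had an unadjusted p under 0.05 and DESeq2 called 489 of 16279. In the paired fit 4 monocyte markers were higher and 1 erythroid marker lower.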

How the data were processed

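The values were the authors' deposited raw counts per gene symbol, 1 table per library, whole numbers without normalization. Per the submitters' processing notes, the tools included HTSeq, DESeq, SAMtools 0.1.14 and STAR 2.3.0 with build mm9, in roles not stated. Strand setting, annotation and read length are not given in the sources used here. The 5 counter rows, 55.76 to 66.53% of records, were set aside. They include the records with more than 1 alignment, which are thus outside the gene counts. Of the gene names, 27 had become dates: 23 were restored and 4 left out. No library was a copy: the 2 nearest libraries differed in 14460 genes.

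The members and gene lists were chosen with earlier results of these data known. The test was that of edgeR 4.0.16 under R 4.3.3 (filterByExpr with a minimum count of 10, TMM, robust quasi-likelihood test, Benjamini-Hochberg over all genes, threshold 0.05), on the 6 libraries of a comparison, or all 12 for the difference between stages. SE is the fold change over the square root of F. Alternatives were DESeq2 1.42.0, other scalings and filters, summed Ear counts, a replicate block and leaving out each library. Both tools were run on simulated data with the same dispersion for every gene and changes only in genes with many counts. That run does not show how they perform at the spread of the GATA2-GMP libraries or at low counts.

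Named genes were the Ear and ribonuclease genes with a count, Prg2, Prg3, Epx, Xbp1, Rnh1, Gata1, Gata2, Il5ra and Cebpe. Added to these were up to 4 called genes per list and genotype comparison with the largest changes, and the 5 nearest genes of each member (log2 CPM, prior count 2). Cd34, Marco and C1qa were picked after their values were seen. The labels state no pairing of GMP libraries. Deviations from group means correlated by 0.264, 0.193 and 0.127 across genes between same-numbered GMP libraries of the 2 genotypes. Between other numbers they correlated by -0.212 to 0.0211. The paired fit in GMP rests on these weak correlations alone.

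Sequences came from mm9 with GENCODE annotation and, for promoters, from RefSeq. Windows were matched exactly, on both strands.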

Additional observations from a re-analysis of the deposited data

How the results depend on the processing

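The Ear values in GATA2-GMP kept their direction under every alternative run. Without each library in turn, Ear1 ran from -6.89 to -5.51, Ear2 from -6.62 to -5.39 and Ear6 from -3.11 to -1.86 there. Between the stages they ran from 7.06 to 8.44, 7.04 to 8.28 and 9.02 to 10.32 in WT, and from 1.04 to 1.44, 0.96 to 1.59 and 6.51 to 8.13 in KO. The difference of the genotype effect between stages ran from -7.12 to -5.74, -6.93 to -5.67 and -3.15 to -1.39. In GMP the range was -0.16 to 0.45 for Ear1 and -1.09 to 0.68 for Ear6, both crossing 0.

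Summing the family merges Ear1 and Ear2 with the far more abundant Ear6. With all Ear symbols summed, or Ear1, Ear2 and Ear6 summed, the log2 fold change was -2.71 or -2.72 in GATA2-GMP, 0.11 or 0.0483 in GMP, and -2.85 or -2.79 for the difference between stages. The stage difference became 8.99 or 9.11 in WT and 6.15 or 6.33 in KO. With library sizes taken without the 20 genes with the most counts, Ear1 and Ear2 came to 0.71 and 0.79 between the stages in KO, where the median of all genes moved to -0.59, so that relative to it they were at 1.30 and 1.37. In WT that median was -0.66.

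The replicate block left the Ear directions as they were. Numbers did not pair GATA2-GMP libraries, whose correlations were -0.129, -0.233 and -0.410. Calls over all genes numbered 381 in GMP, 964 with the block, 17 in a fit on all 12 libraries and 209 to 398 without 1 library. In GATA2-GMP they numbered 44, 3 with the block, 294 without the filter, 504 in DESeq2, 1461 in the fit on all 12 libraries and 0 to 525 without 1 library. The edgeR count was 0 without KO 1 and without KO 3, with 1000 and 1444 genes at an unadjusted p under 0.05. For the difference between stages they numbered 11, 716 in DESeq2, 40 without the filter, 0 to 1179 without 1 library and 0 with the block, where 1336 genes had an unadjusted p under 0.05. List counts stayed within 1.5 times in 211 of 288 alternatives, were lower in 21 and higher in 56. The disulfide list had 8 calls without the filter, 10 in DESeq2, 11 in the fit on all 12 libraries and 0 with the block in GATA2-GMP, and 2 in the fit on all 12 libraries in GMP. The cause of these changes was not tested. Depth limits Ear1 and Ear2 outside GATA2-GMP WT, at 3 to 36 counts a library.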

Other observations

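Rnase12, another ribonuclease A gene, had 1, 0 and 326 counts in GATA2-GMP KO libraries 1 to 3 and 0, 2740 and 5 counts in GATA2-GMP WT. In GMP it had 32, 78 and 12 counts in KO and 2, 21 and 18 counts in WT. The high values stood in 1 library of each GATA2-GMP group, so they do not follow the genotype. Rnase6 was likewise highest in the same libraries of GATA2-GMP, at 10.8 CPM in KO 3 and 27.6 CPM in WT 2, while the other 4 libraries had 2.24 to 7.58 CPM.

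Epx and Ear6 ordered the GATA2-GMP WT libraries differently. WT 3 had the most Epx, at 33368 CPM, and the least Ear6, at 571 CPM, so Ear6 counts came to 1.71 to 10.9% of Epx counts over the 3 WT libraries. In GATA2-GMP KO they came to 2.81 to 15.6%.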
